A study of Homo sapiens with 10 samples.

Results

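SR proteins and heterogeneous nuclear ribonucleoproteins (hnRNPs) are the RNA-binding proteins that decide which splice sites of a pre-mRNA are used. Transcripts of 40 genes were followed: 11 SR proteins (SRSF1 to SRSF11), 4 Tra2 and SR-related coactivators, 6 kinases of SR proteins, and 19 hnRNPs and poly(C)-binding proteins. They were chosen by name, with earlier results of these data known, so the shares of members called below are not free of that choice. All 40 were matched by symbol among the 36498 genes of the deposited table. AsPC-1, the cell line used, was derived from a pancreatic ductal adenocarcinoma and is long established. Glutamine-starved cells (5 libraries) were kept for 24 h in RPMI without glutamine, with 10% dialysed serum. Control cells (5 libraries) were kept for 24 h in complete RPMI, also with 10% serum. Whether the control serum was dialysed is not stated here, so a difference in serum preparation was not separated from that in glutamine. The series title names glutamine depletion, the transcription factor Slug and epithelial-mesenchymal transition, and the design compares starved with control cells. All libraries come from 1 cell line, and the labels number the replicates without saying that they were separate cultures, so the p-values measure the spread between these libraries, which may be technical.

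SR proteins carry arginine-serine repeats and mostly promote the use of an exon to which they bind, whereas hnRNPs such as hnRNP A1 and PTB often oppose it. Phosphorylation of the arginine-serine repeats moves SR proteins: the SRPK kinases send them into the nucleus, and the nuclear CLK kinases release them from storage speckles. Many genes of both families limit their own output by splicing in exons that send the transcript to nonsense-mediated decay. The libraries were made with a kit that tags the 3' ends of transcripts, so the counts below sum all isoforms that share a 3' end, and no splicing event was measured.

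The levels are CPM, the counts of a gene scaled so that each library sums to 1000000. Recovered totals ran from 164008 to 593248 counts in starved libraries and from 141763 to 474619 in control libraries, so that a single count was worth 1.69 to 7.05 CPM. Changes are log2 differences of CPM + 1, starved minus control, from limma-trend across 11202 genes whose mean reached 5 CPM. The p-values were adjusted over all of these by the Benjamini-Hochberg method. A gene is said to have risen or fallen where the adjusted p was under 0.05. Means are given ± SD with n = 5 libraries per group, and errors of log2 changes are SE. Over all tested genes the log2 change had a median of -0.22, which quantile normalization moved by 0.21; no called member changed direction with it. All 10 listed markers of ductal carcinoma epithelium had counts in some library. Their sum was 2775 to 3010 CPM in starved and 13717 to 14719 CPM in control libraries. It came mostly from KRT8, KRT18, KRT19, EPCAM and CEACAM6, which fell, whereas SOX9 rose and KRT7 and CDH1 were not called. MUC1 had 0 counts over the starved and 1 over the control libraries, and CEACAM5 had 1 and 2. Of 21 matched markers of acinar cells, fibroblasts, leukocytes and endothelium 9 were at 0, PRSS1, CPA1, DCN, COL3A1 and CDH5 among them. Only LUM and LYZ reached a group mean of 10 CPM, and both were lower in starved cells, so the fibroblast list summed to 21.2 to 36.6 CPM in starved and 84.6 to 157 CPM in control libraries and the leukocyte list to 4.65 to 18.3 CPM in starved and 61.1 to 106 CPM in control libraries. The acinar list reached at most 5.31 CPM in a starved and 5.06 CPM in a control library, and the endothelial list at most 36.6 CPM in a starved and 4.97 CPM in a control library. Their part in the results was not tested.

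In starved cells these regulators moved both ways: 3 kinases of the CLK family, both Tra2 proteins, HNRNPA1, HNRNPU and the H-type hnRNPs rose, whereas SRSF2, SRSF3, SRSF7 and SRSF9, SRRM1, the hnRNPs A2B1, A3, AB, D, F, M and R, the poly(C) binders PCBP1 and PCBP2 and both SRPK kinases fell. Of 39 members tested, 10 rose and 16 fell. Together 66.7% of the members were called, against 43.3% of all tested genes, of which 17.2% rose and 26.1% fell. Called members numbered 13 up and 15 down with edgeR (22.2% and 25.6% of all genes), 12 and 13 with DESeq2 (18.1% and 21.4%), 8 and 15 in an exact permutation test (14.8% and 22.0%), and 11 and 16 with a replicate block (17.1% and 25.8%). In 7 members every starved library lay above every control library, as in 12.5% of all genes, and in 14 below, as in 17.9%. Either held for 53.8% of the members and 30.4% of all genes. With tests limited to genes whose mean reached 20 CPM, 26 of 37 members were called, against 55.0% of those genes. The median log2 change over the tested members was -0.34. Together the 40 transcripts made up 0.736% ± 0.0145 of all counts in starved and 0.838% ± 0.0592 in control libraries. In bulk RNA, fewer cells with a transcript and less of it per cell cannot be told apart.

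**Figure D1:**
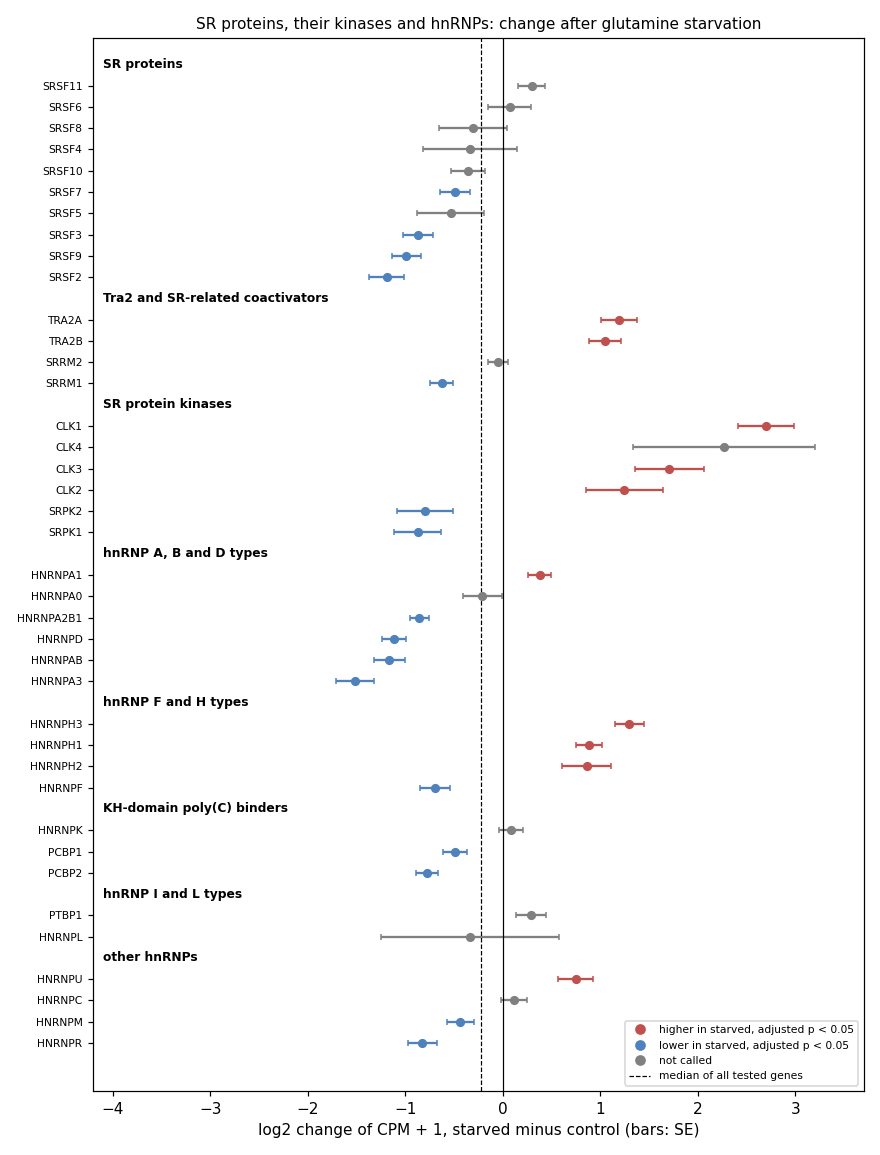
Log2 change of CPM + 1 (starved minus control) for the 39 tested members, grouped by role, with bars of 1 SE. Red points rose and blue points fell at a limma adjusted p under 0.05, grey points were not called, and the dashed line is the median of all tested genes. CLK1 stands farthest to the right with 2.70 and HNRNPA3 farthest to the left at -1.51.

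By their limma calls the kinases divided by family. Of the 4 CLK kinases 3 rose and 0 fell, and both SRPK kinases fell, against 17.2% risen and 26.1% fallen of all tested genes. The groups overlapped in both SRPK genes, and the SRPK2 call was lost in 7 of 22 alternatives. CLK1, a kinase that phosphorylates SR proteins in nuclear speckles, measured 135, 144, 130.2, 262 and 149 CPM in starved libraries, against 42.3, 12.6, 24.9, 29.5 and 17.7 CPM in control libraries. The groups lay far apart, with the lowest starved library above 3 times the highest control library, and starved replicate 4 stood above the other starved libraries. CLK1 averaged 164 ± 55.4 CPM in starved cells and 25.4 ± 11.5 CPM in control cells, a 6.45-fold rise (log2 change 2.70, SE 0.29, limma adjusted p = 1.62e-07). Without starved replicate 4 the log2 change was 2.52.

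CLK3, a relative of CLK1 with the same kinase fold, measured 91, 59.5, 55.8, 36.6 and 37.2 CPM in starved libraries, against 14.1, 16.9, 19.9, 14.8 and 12.6 CPM in control libraries. The groups did not overlap, and the starved libraries spread more widely than the control libraries. CLK3 rose 3.58-fold (log2 change 1.71, SE 0.35, limma adjusted p = 0.000505). EDC3, which shares exon bases with CLK3 on the opposite strand in GENCODE 29, also rose, with 44.3 ± 8.87 CPM in starved and 23.6 ± 6.74 CPM in control cells. Because the use of strand in counting is not given in the sources used here, reads of such pairs cannot be told apart.

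CLK2 measured 40.5, 44.6, 32.5, 30.5 and 63.7 CPM in starved libraries, against 21.2, 8.43, 12.4, 24.6 and 22.7 CPM in control libraries. Its lowest starved library was above its highest control library. CLK2, a nuclear kinase of the same family, rose 2.37-fold (log2 change 1.25, SE 0.39, limma adjusted p = 0.0131). CLK4, the closest relative of CLK1, was not called (limma adjusted p = 0.0542). It measured 16.9, 0, 13.9, 30.5 and 26.5 CPM in starved libraries, against 7.05, 2.11, 0, 0 and 2.53 CPM in control libraries, in all 23 counts over the starved and 3 counts over the control libraries. Starved replicate 2 was at 0, and the other starved libraries lay above all control libraries. The ratio of its pooled CPM, starved over control, was 9.10, with an exact binomial 95% interval of 2.75 to 47.4 that covers counting error only. In 8 of 21 alternative settings CLK4 passed the threshold. These were edgeR (adjusted p = 0.000196), DESeq2 (adjusted p = 0.0039), quantile normalization (adjusted p = 0.00754), a pseudocount of 5 (adjusted p = 0.0102), a replicate block (adjusted p = 0.0491) and 3 analyses without libraries. The last were those without starved replicate 2, where it was listed at 0 (adjusted p = 0.00325), without control replicate 1 (adjusted p = 0.0313) and without control replicates 1 and 2 (adjusted p = 0.0411). The 4 CLK transcripts together summed to 280 ± 49.2 CPM in starved and 61.3 ± 16.6 CPM in control cells.

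SRPK1, the main kinase that loads phosphate onto SR proteins in the cytoplasm, measured 50.6, 84.3, 51.1, 36.6 and 47.8 CPM in starved libraries, against 113, 69.5, 82, 123 and 104 CPM in control libraries. The groups overlapped, because starved replicate 2 lay above control replicates 2 and 3. SRPK1 averaged 54.1 ± 17.9 CPM in starved cells and 98.2 ± 22 CPM in control cells (log2 change -0.87, SE 0.24, limma adjusted p = 0.00555) and fell, a call that was lost in an exact permutation test (adjusted p = 0.0581). SRPK2, which acts in the same step, measured 53.9, 44.6, 65.1, 18.3 and 53.1 CPM in starved libraries, against 77.6, 63.2, 87, 73.8 and 80.9 CPM in control libraries. The lowest value, in starved replicate 4, stood below the other starved libraries, and starved replicate 3 lay above control replicate 2. SRPK2 averaged 47 ± 17.6 CPM in starved cells and 76.5 ± 8.86 CPM in control cells and fell (log2 change -0.80, SE 0.29, limma adjusted p = 0.0296). The call was lost in 7 of 22 alternatives, among them edgeR on the recovered counts (log2 change -0.52, adjusted p = 0.0651). Without starved replicate 4 the log2 change was -0.49 (adjusted p = 0.0748). The others were DESeq2, median-of-ratios scaling and the analyses without control replicate 3, control replicate 5, and control replicates 1 and 2 (adjusted p from 0.0519 to 0.119). KMT2E, which shares exon bases with SRPK2 on the opposite strand, rose. The pseudogene SRPK2P had 10 counts over the starved and 32 over the control libraries, beside 68 and 123 for SRPK2. Its part in the level listed for SRPK2 was not tested.

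**Figure D2:**
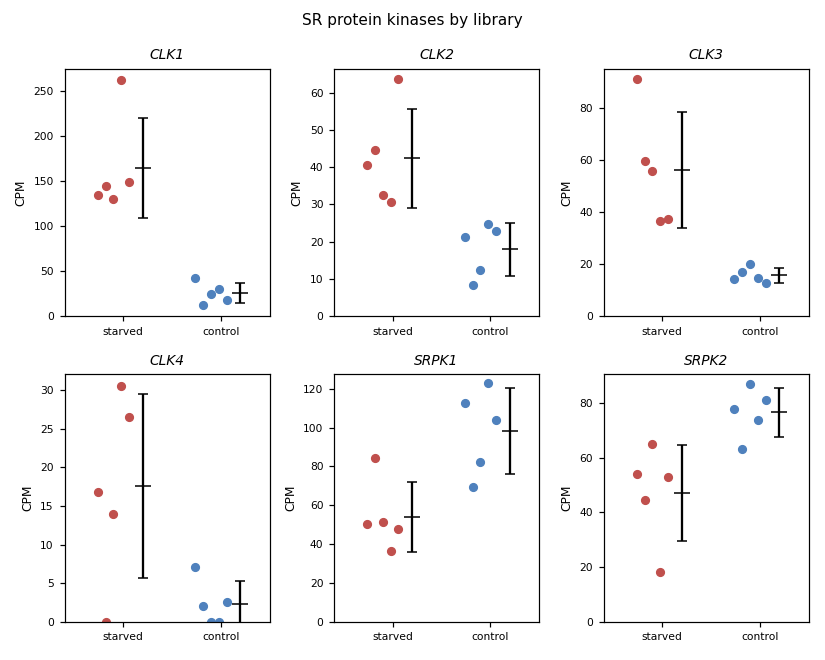
CPM of the 6 SR protein kinases in each library, starved (red) left of control (blue), with the mean and SD (n = 5) in black beside the points and all axes from 0. CLK1, CLK2 and CLK3 separate the groups upward, CLK4 is at or near 0 in control libraries, and SRPK1 and SRPK2 lie lower in starved cells with overlap.

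The promoters of the 4 CLK genes are shown because these genes rose together or, for CLK4, had the same sign. The sequences are RefSeq's, build GRCh38.p14, from 250 bases before to 50 bases after a transcript start, each written 5' to 3' on its gene's strand. They lie at chr2:200864512-200864811 (minus strand) for CLK1, chr1:155273455-155273754 (minus) for CLK2, chr15:74615586-74615885 (plus) for CLK3 and chr5:178627001-178627300 (minus) for CLK4. For CLK1 and CLK3, which have 2 listed starts each, the downstream start is shown. Capitals mark matches to TGACGT, the core of the cAMP response element that CREB and ATF factors bind, or to CACGTG, the E-box of MYC and MondoA relatives, on either strand.
CLK1: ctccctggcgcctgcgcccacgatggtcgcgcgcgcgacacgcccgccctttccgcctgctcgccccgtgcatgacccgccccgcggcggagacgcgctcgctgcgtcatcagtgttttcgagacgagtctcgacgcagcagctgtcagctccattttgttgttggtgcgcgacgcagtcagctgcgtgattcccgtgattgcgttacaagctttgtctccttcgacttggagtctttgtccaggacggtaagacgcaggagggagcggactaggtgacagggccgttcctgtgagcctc
CLK2: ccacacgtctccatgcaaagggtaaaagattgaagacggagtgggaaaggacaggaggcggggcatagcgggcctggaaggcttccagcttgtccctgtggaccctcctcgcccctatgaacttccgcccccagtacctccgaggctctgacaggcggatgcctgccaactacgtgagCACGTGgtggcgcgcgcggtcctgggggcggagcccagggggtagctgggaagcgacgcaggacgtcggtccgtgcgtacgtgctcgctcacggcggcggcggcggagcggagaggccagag
CLK3: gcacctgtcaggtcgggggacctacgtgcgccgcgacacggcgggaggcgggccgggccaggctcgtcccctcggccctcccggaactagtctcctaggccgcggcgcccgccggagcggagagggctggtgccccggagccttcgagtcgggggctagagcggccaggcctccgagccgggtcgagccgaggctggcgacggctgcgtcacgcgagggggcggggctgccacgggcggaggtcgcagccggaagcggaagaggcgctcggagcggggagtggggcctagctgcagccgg
CLK4: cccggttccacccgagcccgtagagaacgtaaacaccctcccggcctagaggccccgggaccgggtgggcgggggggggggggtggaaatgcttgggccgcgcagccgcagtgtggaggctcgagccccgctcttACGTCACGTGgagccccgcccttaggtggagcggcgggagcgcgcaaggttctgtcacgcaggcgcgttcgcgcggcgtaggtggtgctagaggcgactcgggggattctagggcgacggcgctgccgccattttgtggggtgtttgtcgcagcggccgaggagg
CLK2 held an E-box upstream of the start, and in CLK4 a cAMP response element core and an E-box overlapped in 1 run. Neither window of CLK1 or of CLK3 held these letters. The motifs were chosen with the changes known.

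Promoter windows were found for 37 of the 40 members, 56 windows in all; TRA2A, SRSF2 and HNRNPA1 are the other 3. The letters TGACGT stood in a window of 11 of these members, against 9.64% of the 27305 genes in the RefSeq table, and CACGTG in 7 members, against 8.77% of genes. TGACGT was present in 2 of the 8 risen, 4 of the 15 fallen and 4 of the 13 uncalled members with a window. CACGTG was present in 3 of 8, 3 of 15 and 1 of 13 of them. TGATGNAA, the element on which ATF4 pairs with C/EBP factors during amino acid shortage, stood in none of the 37, against 4.46% of genes. Member windows were richer in G and C (median 64.8%) than all windows (median 58.7%), and these matches are letters only, not binding sites.

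Among the SR proteins themselves, 4 of 10 tested fell and 0 rose, with a median log2 change of -0.42. Of all tested genes 26.1% fell and 17.2% rose, and the median log2 change was -0.22. With only 10 genes, whether these shares differ from those of all genes was not tested. SRSF2, also known as SC35 and a classic activator of exon inclusion, measured 77.5, 54.6, 60.4, 91.5 and 69 CPM in starved libraries, against 183, 139, 159, 157 and 162 CPM in control libraries. Every starved library lay below every control library. SRSF2 averaged 70.6 ± 14.5 CPM in starved cells and 160.1 ± 15.8 CPM in control cells and fell by a factor of 2.27 (log2 change -1.19, SE 0.18, limma adjusted p = 1.44e-05). SRSF9, an SR protein with a short arginine-serine tail, measured 201, 183, 181, 122 and 154 CPM in starved libraries, against 268, 335, 345, 399 and 318 CPM in control libraries. The groups were again separate, with starved replicate 4 lowest. SRSF9 fell by a factor of 1.98 (log2 change -0.99, SE 0.15, limma adjusted p = 1.32e-05); the gene GATC, which shares exon bases with it on the opposite strand, was not called.

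SRSF3 and SRSF7, small SR proteins that also couple splicing to mRNA export, fell to different degrees. SRSF3 averaged 139 ± 28.7 CPM in starved cells and 252 ± 20.9 CPM in control cells (log2 change -0.87, SE 0.15, limma adjusted p = 8.8e-05). SRSF7 averaged 106 ± 5.28 CPM in starved cells and 151 ± 19.8 CPM in control cells (log2 change -0.49, SE 0.15, limma adjusted p = 0.0127). Neither gene's groups overlapped. The SRSF7 call was lost with DESeq2 (adjusted p = 0.0674) and without a filter on low values (adjusted p = 0.0766), and relative to the median of all genes its log2 change was -0.27.

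The remaining SR proteins were not called. SRSF10, which represses splicing after heat shock, averaged 145 ± 33.6 CPM in starved cells and 182 ± 26.7 CPM in control cells (limma adjusted p = 0.0986); without starved replicate 5 it passed (adjusted p = 0.0489). SRSF11 had the highest mean difference toward starved cells, 281 ± 53.9 CPM in starved cells and 227 ± 26.5 CPM in control cells (limma adjusted p = 0.0904), and passed with edgeR (adjusted p = 0.0084), DESeq2 (adjusted p = 0.0328) and median-of-ratios scaling (adjusted p = 0.028). SRSF6 averaged 81.5 ± 17.4 CPM in starved cells and 78.4 ± 21 CPM in control cells. SRSF4, SRSF5 and SRSF8 had log2 changes of -0.34, -0.53 and -0.31 with SE of 0.48, 0.34 and 0.35, none called. Single libraries moved these values: with 1 library left out, SRSF4 ran from -0.74 (without control replicate 1) to -0.09 (without control replicate 3). SRSF5 ran from -0.74 (without control replicate 3) to -0.25 (without starved replicate 5), and SRSF8 from -0.49 (without control replicate 4) to -0.18 (without control replicate 5).

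SRSF1, the founding SR protein, was the 1 member that was not tested. It had 3 counts over the starved and 6 over the control libraries, a ratio of 0.594 with an exact binomial 95% interval of 0.0961 to 2.78. RP11-159D12.5, a gene that shares 1890 exon bases with SRSF1 on the same strand in GENCODE 29, measured 119 ± 19.6 CPM in starved and 150.3 ± 30.7 CPM in control cells and was not called (limma adjusted p = 0.142). Which of the 2 genes received the SRSF1 reads was not tested, so the level listed for SRSF1 is uncertain.

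The Tra2 proteins, relatives of SR proteins that bind GA-rich exon enhancers, rose together. TRA2A measured 155, 174, 209, 226 and 186 CPM in starved libraries, against 77.6, 73.7, 57.2, 113 and 98.6 CPM in control libraries. TRA2B measured 249, 208, 274, 219.5 and 339.7 CPM in starved libraries, against 148, 92.7, 107, 138 and 136 CPM in control libraries. In both genes all starved libraries exceeded all control libraries. TRA2A rose 2.26-fold (log2 change 1.19, SE 0.19, limma adjusted p = 2.45e-05). The rise of TRA2B was 2.08-fold (log2 change 1.05, SE 0.17, limma adjusted p = 2.74e-05). Their log2 changes ran from 1.07 to 1.31 for TRA2A and from 0.94 to 1.20 for TRA2B over all alternatives.

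The SR-related matrix proteins SRRM1 and SRRM2, large coactivators that bridge SR proteins and the splicing machinery, differed from the Tra2 genes. SRRM1 measured 357, 342, 349, 445 and 297 CPM in starved libraries, against 593, 493, 582, 610.1 and 475 CPM in control libraries. It fell without overlap and averaged 358 ± 53.9 CPM in starved cells and 550.5 ± 61.8 CPM in control cells (log2 change -0.62, SE 0.12, limma adjusted p = 0.000205). Against the median of all genes its log2 change was -0.40. SRRM2 averaged 562 ± 67 CPM in starved cells and 578 ± 42.8 CPM in control cells and was not called (log2 change -0.05, limma adjusted p = 0.743). TCEB2, which overlaps exons of SRRM2 on the opposite strand, fell to 788 ± 74.5 CPM in starved cells, against 1306 ± 47.4 CPM in control cells.

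**Figure D3:**
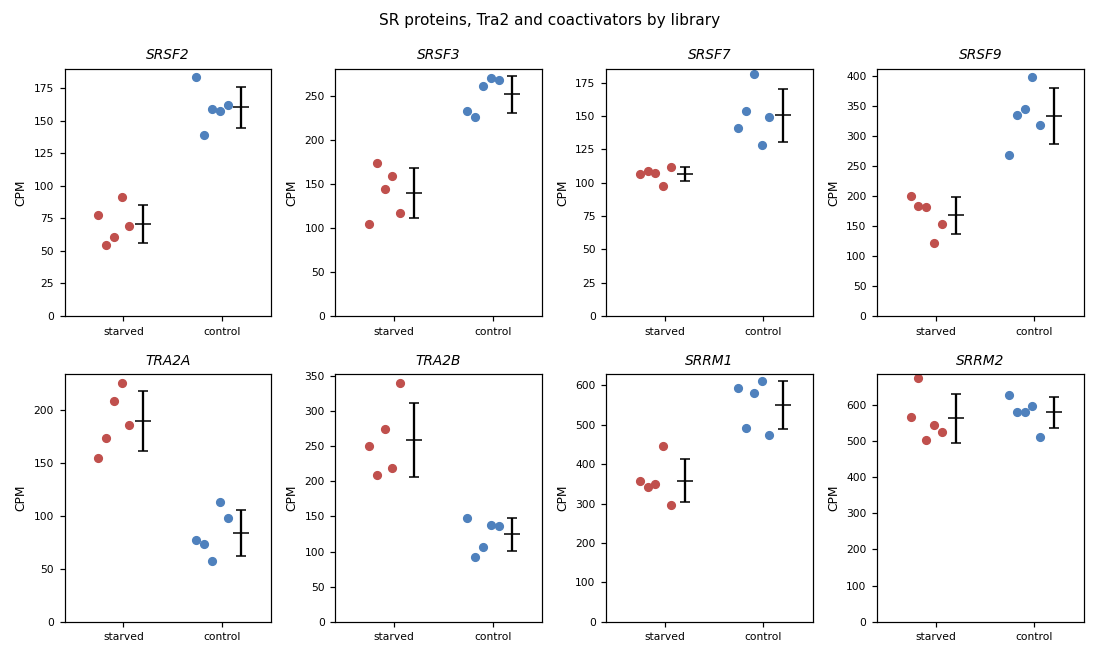
CPM of 4 SR proteins, both Tra2 genes and both SRRM genes in each library, starved (red) left of control (blue), with the mean and SD (n = 5) in black and axes from 0. SRSF2, SRSF3, SRSF7, SRSF9 and SRRM1 separate downward, TRA2A and TRA2B separate upward, and SRRM2 overlaps.

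The A, B and D types of hnRNP are abundant proteins with paired RNA recognition motifs and a glycine-rich tail. Their transcripts fell in 4 of 6 cases and rose in 1, with a median log2 change of -0.99. Over all tested genes 26.1% fell and 17.2% rose, with a median log2 change of -0.22. HNRNPA3 measured 97.8, 119, 55.8, 91.5 and 127 CPM in starved libraries, against 353, 234, 234, 319.8 and 240.1 CPM in control libraries. The highest starved library reached 127 CPM and the lowest control library 234 CPM. HNRNPA3 averaged 98.3 ± 28 CPM in starved cells and 276 ± 56.3 CPM in control cells and fell by a factor of 2.81 (log2 change -1.51, SE 0.20, limma adjusted p = 2.23e-06), the largest fall among the members. Its pseudogene HNRNPA3P6 had 0 counts over the starved and 17 over the control libraries.

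HNRNPAB, which also acts in RNA transport, measured 143, 208, 181, 189 and 133 CPM in starved libraries, against 536, 306, 331, 364 and 397 CPM in control libraries. Control replicate 1 was the highest of all, and the groups did not overlap. HNRNPAB fell by a factor of 2.26 (log2 change -1.17, SE 0.16, limma adjusted p = 3.9e-06). HNRNPD, also called AUF1 and known for marking AU-rich mRNAs for decay, measured 162, 164, 163, 134 and 202 CPM in starved libraries, against 339, 367, 348, 384 and 341 CPM in control libraries. Replicates were tight in both groups, and HNRNPD fell by a factor of 2.16 (log2 change -1.12, SE 0.13, limma adjusted p = 3.56e-07). HNRNPA2B1, a sorter of RNAs and a reader of splice silencers, averaged 471 ± 32.8 CPM in starved cells and 856 ± 90.5 CPM in control cells (log2 change -0.86, SE 0.10, limma adjusted p = 4.06e-07). CBX3, which lies head to head with HNRNPA2B1 and shares exon bases with it, fell as well.

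HNRNPA1, the best studied splicing silencer of the family, went the other way. It measured 752, 575, 535, 640.2 and 669 CPM in starved libraries, against 543, 487, 477, 541 and 389 CPM in control libraries. The groups overlapped slightly, since starved replicate 3 was below control replicates 1 and 4. HNRNPA1 averaged 634 ± 84.3 CPM in starved cells and 488 ± 62.7 CPM in control cells (log2 change 0.38, SE 0.11, limma adjusted p = 0.0109), a call lost in the exact permutation test (adjusted p = 0.0581). It has many processed pseudogenes, 25 of them in the table, with 53 counts over starved and 48 over control libraries, so its exact level is uncertain. HNRNPA0 was not called, with 74.7 ± 11.8 CPM in starved cells and 86.9 ± 17 CPM in control cells.

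The F and H types share quasi-RNA recognition motifs that bind runs of G, and here they parted: HNRNPH1, HNRNPH2 and HNRNPH3 rose and HNRNPF fell. HNRNPH3 measured 275, 317, 358, 348 and 387 CPM in starved libraries, against 190.5, 116, 119, 143 and 121 CPM in control libraries. HNRNPH1 measured 271, 278, 321, 305 and 334 CPM in starved libraries, against 169, 129, 162, 187 and 174 CPM in control libraries. Both separated the groups upward. HNRNPH3 rose 2.44-fold (log2 change 1.30, SE 0.15, limma adjusted p = 4.88e-07). The rise of HNRNPH1 was 1.84-fold (log2 change 0.88, SE 0.13, limma adjusted p = 1.49e-05).

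HNRNPF measured 194, 134, 153, 183 and 143 CPM in starved libraries, against 353, 291, 236, 221 and 217 CPM in control libraries. Its highest starved library lay below its lowest control library. HNRNPF fell by a factor of 1.63 (log2 change -0.69, SE 0.16, limma adjusted p = 0.00116). HNRNPH2, a close paralog of HNRNPH1, averaged 90.6 ± 24.2 CPM in starved cells and 49.5 ± 14.1 CPM in control cells (log2 change 0.86, SE 0.25, limma adjusted p = 0.00829), with overlapping groups. A readthrough gene, RPL36A-HNRNPH2, shares exon bases with it on the same strand and was not called. The 4 F and H transcripts summed to 891 ± 78.1 CPM in starved and 615 ± 96.1 CPM in control cells, while the 6 A, B and D transcripts summed to 1614 ± 88.3 CPM in starved and 2449 ± 245 CPM in control cells.

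**Figure D4:**
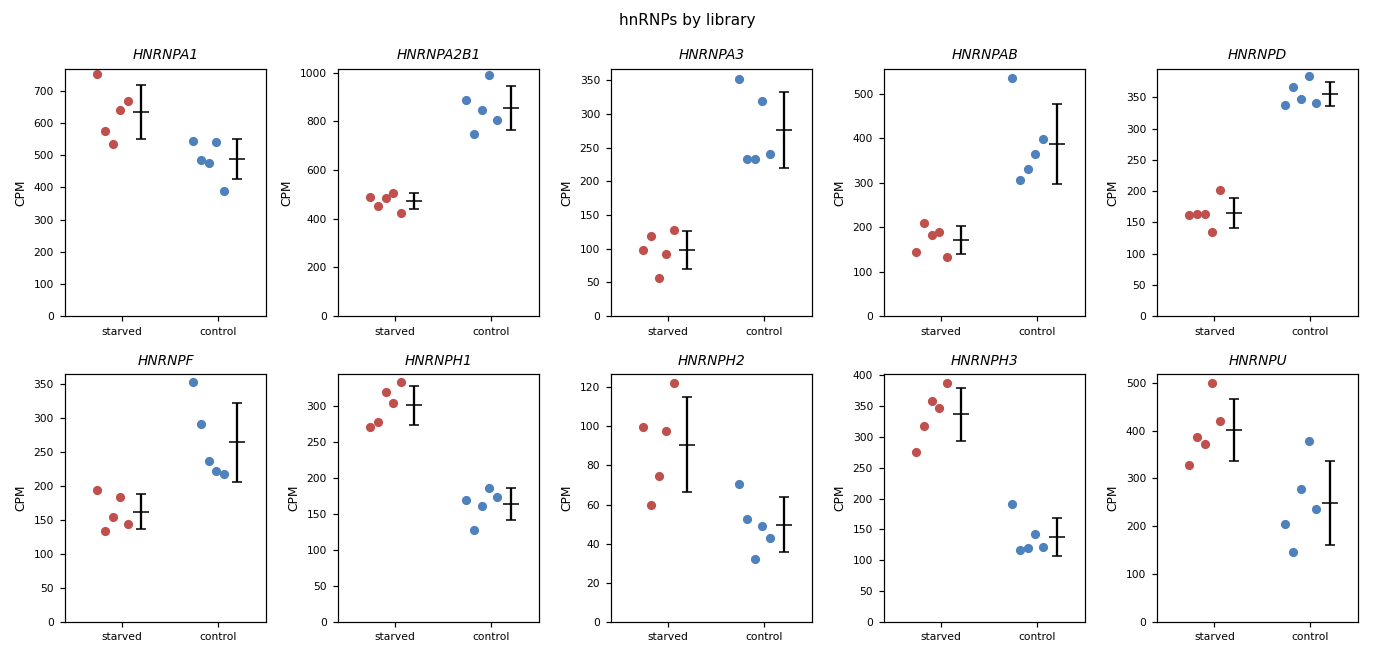
CPM of 10 hnRNP genes in each library, starved (red) left of control (blue), with the mean and SD (n = 5) in black and axes from 0. HNRNPA2B1, HNRNPA3, HNRNPAB, HNRNPD and HNRNPF lie lower in starved cells without overlap, HNRNPH1 and HNRNPH3 lie higher without overlap, and HNRNPA1, HNRNPH2 and HNRNPU lie higher with overlap.

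Of the poly(C)-binding proteins, which use KH domains and stabilise or silence mRNAs with C-rich stretches, PCBP1 and PCBP2 fell and HNRNPK was not called. PCBP2 measured 258, 228, 256, 213 and 207 CPM in starved libraries, against 395, 413, 415, 399 and 366 CPM in control libraries. PCBP1, an intronless relative of PCBP2, measured 243, 223, 199.9, 189 and 212 CPM in starved libraries, against 289, 327, 296, 339.5 and 253 CPM in control libraries. In both genes the starved libraries lay below all control libraries. PCBP2 fell by a factor of 1.71 (log2 change -0.78, SE 0.11, limma adjusted p = 9.17e-06) and PCBP1 by a factor of 1.41 (log2 change -0.49, SE 0.12, limma adjusted p = 0.00309). Relative to the median of all genes the PCBP1 log2 change was -0.27. RP11-793H13.8, which shares 1097 exon bases with PCBP2 on the same strand, also fell, to 429 ± 42.8 CPM in starved cells against 778 ± 31.1 CPM in control cells, and MAP3K12, on the opposite strand, fell as well. HNRNPK averaged 367 ± 24.8 CPM in starved cells and 349 ± 61.8 CPM in control cells (limma adjusted p = 0.602).

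PTBP1 and HNRNPL, repressors that bind pyrimidine and CA repeats, were not called. PTBP1 averaged 195 ± 38.9 CPM in starved cells and 157 ± 13.6 CPM in control cells (limma adjusted p = 0.142), passed with edgeR (adjusted p = 0.0166) and passed without starved replicate 4 (adjusted p = 0.0235). HNRNPL rested on 12 counts over the starved and 19 over the control libraries, a ratio of 0.750 with an exact binomial 95% interval of 0.332 to 1.63. AC104534.3, which shares 561 exon bases with HNRNPL on the same strand, measured 73.1 ± 20.9 CPM in starved and 56.9 ± 8.97 CPM in control cells, so HNRNPL's level is uncertain.

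Of the other hnRNPs, HNRNPR, a relative of SYNCRIP, measured 150.0, 144, 205, 122 and 175 CPM in starved libraries, against 324, 249, 273, 295 and 255 CPM in control libraries. HNRNPM, which binds GU-rich sequences and takes part in epithelial-mesenchymal splicing switches, measured 169, 208, 153, 201 and 180.5 CPM in starved libraries, against 247, 215, 249, 305 and 222 CPM in control libraries. All starved libraries were below all control libraries in both. HNRNPR fell by a factor of 1.76 (log2 change -0.82, SE 0.15, limma adjusted p = 0.000109) and HNRNPM by a factor of 1.36 (log2 change -0.44, SE 0.14, limma adjusted p = 0.0139), the HNRNPM call being lost with DESeq2 (adjusted p = 0.0752). Relative to the median of all genes the HNRNPM log2 change was -0.21.

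HNRNPU, a scaffold attachment factor of chromatin, measured 329, 387, 372, 500.0 and 419 CPM in starved libraries, against 205, 145, 278, 379 and 235 CPM in control libraries. Control replicate 4 reached into the range of the starved libraries. HNRNPU averaged 401 ± 64 CPM in starved cells and 248 ± 87.5 CPM in control cells and rose (log2 change 0.75, SE 0.18, limma adjusted p = 0.00239), a call lost in the exact permutation test (adjusted p = 0.0581). Without control replicates 1 and 2 its log2 change was 0.45 (adjusted p = 0.0402). COX20, which shares 3502 exon bases with HNRNPU on the opposite strand, rose by nearly as much, with 454 ± 71.8 CPM in starved and 276 ± 54 CPM in control cells (log2 change 0.72, SE 0.14). HNRNPC, which coats pre-mRNA and binds U-rich tracts, was not called (log2 change 0.12, SE 0.13, limma adjusted p = 0.488).

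**Figure D5:**
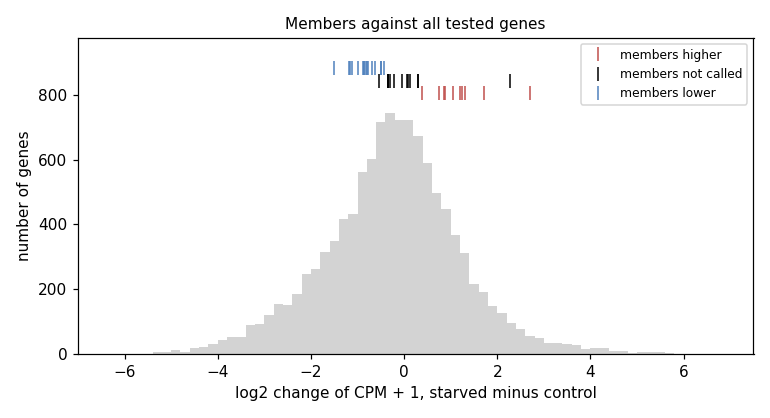
Histogram of the log2 change (starved minus control) of all 11202 tested genes, in number of genes per bin, with the 39 tested members as ticks above it: red ticks rose, black ticks were not called and blue ticks fell. The members span -1.51 to 2.70, inside the range of all genes.

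Most members have an annotation feature that the choice by name did not use directly. As both families are known to limit their output by such transcripts, the shares below are not independent of that choice. In GENCODE 29, 32 of the 40 (80.0%) have a transcript annotated as a target of nonsense-mediated decay, against 40.8% of the 11135 tested genes found in that release. A transcript with a retained intron is annotated for 30 members (75.0%), against 54.0% of tested genes. Decay-type transcripts were annotated for 7 of 10 risen, 12 of 16 fallen and 12 of 13 uncalled members. CLK1 has 8 and TRA2B 8 annotated retained-intron transcripts, whereas 6 members (CLK2, HNRNPA0, HNRNPF, HNRNPH2, HNRNPH3 and PCBP1) have 0 of either kind. The number of annotated transcripts per gene, 1 for HNRNPA0 and 50 for HNRNPH1, was not taken into account. These shares describe the catalogue and not the transcripts present here.

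Other regulators outside the 40 were counted from 3 lists. Of 64 tested rows of other splicing regulators 11 rose and 15 fell, with a median log2 change of -0.04. These are 17.2% and 23.4%, close to the 17.2% and 26.1% of all tested genes. RBM39, an SR-like splicing coactivator, averaged 599 ± 58.3 CPM in starved cells and 333 ± 15.1 CPM in control cells (log2 change 0.84, SE 0.10, limma adjusted p = 8.02e-07). QKI, a STAR-family regulator of exon choice and circular RNA, averaged 184 ± 21.7 CPM in starved cells and 76.3 ± 13 CPM in control cells (log2 change 1.27, SE 0.17, limma adjusted p = 3.24e-06). RBM4, which competes with PTB, averaged 120.0 ± 22.5 CPM in starved cells and 39.8 ± 17.1 CPM in control cells. These 3 rose.

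Among those that fell, NONO, a paraspeckle protein, averaged 119 ± 20.8 CPM in starved cells and 286 ± 38.4 CPM in control cells (log2 change -1.27, SE 0.15, limma adjusted p = 6.43e-07). SYNCRIP, the relative of HNRNPR, averaged 128 ± 17.1 CPM in starved cells and 252 ± 24.9 CPM in control cells (log2 change -0.98, SE 0.14, limma adjusted p = 7.73e-06). MSI2, a translational regulator, averaged 9.52 ± 4.6 CPM in starved cells and 60.4 ± 18.2 CPM in control cells. With edgeR 18 genes of this list rose; with DESeq2, and without control replicates 1 and 2, 8 fell.

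Of 11 tested kinases, phosphatases and importins that handle SR proteins, 3 rose and 2 fell. By direction, 27.3% rose and 18.2% fell, against 17.2% and 26.1% of all tested genes. The share called in either direction, 45.5%, was close to the 43.3% of all tested genes. PPP1R10, a nuclear subunit that anchors protein phosphatase 1, averaged 147 ± 21.5 CPM in starved cells and 59.7 ± 30.8 CPM in control cells (log2 change 1.46, SE 0.30, limma adjusted p = 0.000501). Among the catalytic subunits of that phosphatase, PPP1CA rose, with 719 ± 33.4 CPM in starved cells and 541 ± 28.5 CPM in control cells. PPP1CC fell, with 99.9 ± 19.6 CPM in starved cells and 184 ± 28.8 CPM in control cells. PPP1CB, with 13 counts over the starved and 9 over the control libraries, was not called (log2 change 1.57, SE 0.83, limma adjusted p = 0.133). AKT1, which can act on SRPK1, fell and averaged 32 ± 9.83 CPM in starved cells and 74 ± 25.5 CPM in control cells. TNPO1, an importin of hnRNP A1, averaged 175 ± 17.4 CPM in starved cells and 132 ± 41.8 CPM in control cells (log2 change 0.46, SE 0.18, limma adjusted p = 0.041), a call lost in 10 of 22 alternatives, with adjusted p up to 0.107. Among these were the analyses without starved replicate 1, 2, 3 or 4 and without control replicate 2, 3, 4 or 5.

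Of 17 nonsense-mediated decay and exon junction factors 5 rose and 1 fell, with a median log2 change of 0.47. By direction, 29.4% rose and 5.88% fell, against 17.2% and 26.1% of all tested genes. The share called in either direction, 35.3%, was below the 43.3% of all tested genes. RBM8A, the exon junction protein Y14, averaged 778 ± 35.2 CPM in starved cells and 314 ± 48.9 CPM in control cells (log2 change 1.32, SE 0.11, limma adjusted p = 3.63e-09). SMG5, which recruits decay enzymes, averaged 115 ± 28.7 CPM in starved cells and 37.6 ± 15.9 CPM in control cells (log2 change 1.67, SE 0.30, limma adjusted p = 0.000113). SMG1, the kinase that acts on UPF1, averaged 198 ± 23.3 CPM in starved cells and 114 ± 15.5 CPM in control cells. These rose, as did UPF2 and UPF3B, named to complete the count of 5. MAGOHB, a partner of RBM8A, averaged 65.3 ± 12.4 CPM in starved cells and 101 ± 11.5 CPM in control cells and fell (log2 change -0.63, SE 0.19, limma adjusted p = 0.012); the call was lost without a filter on low values (adjusted p = 0.056). With edgeR, and with quantile normalization, 8 factors of this list rose.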

How the data were processed

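RNA of AsPC-1 cells was measured in 5 glutamine-starved and 5 control libraries made with a 3' transcriptome kit, per the labels' protocols. The submitters' processing notes name the build hg19; aligner, counter, annotation release, handling of molecular identifiers and strand setting were not given in the sources used here. Values deposited by the authors are CPM: each column sums to 1000000 over 36498 genes. In every column 100% of the values were, within a relative tolerance of 1e-06, whole multiples of what 1 count is worth, so counts were recovered as whole numbers.

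Differences were tested two-sided by limma-trend (limma 3.58.1 under R 4.3.3) without covariates. The values were log2(CPM + 1), which understates changes of low genes, of the 11202 genes whose mean reached 5 CPM. Alternatives were pseudocounts of 0.5 and 5, no filter, a filter at 20 CPM, scaling by TMM, median of ratios or quantiles, a replicate block, edgeR 4.0.16 and DESeq2 1.42.0 on recovered counts, an exact permutation test over 252 splits (smallest p 0.00794), each library left out, and control replicates 1 and 2 left out together, as their library indices lie outside the run of the others. edgeR called 5352 genes and limma 4850. The fit was also run on simulated counts with 200 changed genes, raised and lowered in equal number. Those counts lack the broad change seen here, so they do not test the fit under it.

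Members and lists were chosen with earlier results of these data known. Per-library values are given for the called members with the 2 largest rises and falls per role and for called members with a log2 change above 1 or below -1; of other lists, up to 3 rises and 3 falls with the smallest p. Of the 69 other splicing regulators listed, 67 were matched by symbol, MATR3 and TARDBP to 2 rows each. Overlaps and transcript types come from GENCODE 29 (GRCh38), matched by gene identifier without version; none of its coordinates are used. Promoters are RefSeq's. Intervals cover counting error only.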

Additional observations from a re-analysis of the deposited data

Results flagged for a closer look

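In groups of 5 libraries, a library was singled out where its gap to the nearest other library exceeded 0.71 of the group's range. This held in 3 of 80 groups of member values, and chance gives about 1 in 20. CLK1 reached 262 CPM in starved replicate 4, against 130.2 to 149 CPM in the other starved libraries. HNRNPA0 reached 117 CPM in control replicate 3, against 75.9 to 84.6 CPM in the other control libraries. HNRNPK was at 322 CPM in starved replicate 2, against 374 to 381 CPM in the other starved libraries.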

How the results depend on the processing

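All 26 called members kept their direction in each of the 22 alternatives. Direction could not change with no filter, the filter at 20 CPM, the replicate block or the permutation test, which keep the same log2 difference. The number of risen members ran from 8 to 13 and of fallen members from 13 to 17, and leaving out 1 library gave 10 to 11 and 15 to 17. Of 856 recomputed member values 13 lost and 14 gained a call. Direction turned in 8, all in uncalled members. SRRM2 became 0.040 with median-of-ratios scaling, 0.064 with edgeR and 0.052 with DESeq2. HNRNPL became 0.37 without starved replicate 2, 0.09 without control replicate 1 and 0.51 without control replicates 1 and 2, within -1.13 to 0.37 over single libraries left out. SRSF6 became -0.03 without starved replicate 5 and -0.050 without control replicate 4, within -0.050 to 0.20. The cause was not tested.

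In the 3 lists of other regulators together 19 rose and 18 fell; 29 rose with edgeR, and 11 fell with DESeq2 and 11 without control replicates 1 and 2. Same-numbered libraries deviated together with correlations of -0.0158 to 0.0227, and other-numbered libraries with -0.0317 to 0.0289. With few counts per gene such correlations can stay low even for paired libraries, so whether replicate numbers pair the libraries was not decided. With a replicate block 11 members rose, CLK4 being added at an adjusted p of 0.0491, and 16 fell. At 1.69 to 7.05 CPM per count, SRSF1, CLK4 and HNRNPL rest on few counts.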
